A study of Rattus norvegicus with 12 samples.

Results

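Interferon-stimulated genes were followed in rat lung as a list of 43 genes, given by name, with earlier results of these arrays known when it was drawn up. Of the 43 genes, 36 had a probe that could be tied to them by its RefSeq accession. All of these 36 genes were tested, among 11146 genes tested in all. The other 7 genes (Ddx58, Gbp4, Parp14, Herc6, Xaf1, Zbp1 and Ifi47) had no probe with such an accession and were not analysed here. The RNA came from lung tissue, taken from the left upper lobe, of male Sprague-Dawley rats aged 8 to 12 weeks. The 12 arrays held 1 rat each, with 3 rats in each of 4 groups. Control rats received neither smoke nor LPS. CS+LPS rats breathed cigarette smoke (CS) until day 30 and were given bacterial lipopolysaccharide (LPS) into the trachea on days 5 and 19, which serves as a short model of chronic obstructive pulmonary disease. CS+LPS+NaHS rats had the same exposure and received NaHS in addition, a donor of hydrogen sulfide. CS+LPS+PPG rats had the same exposure and were given PPG (propargylglycine), which inhibits CTH, an enzyme that makes hydrogen sulfide in the body. Both agents were given before the exposures, and the tissue was collected 24 h after exposure ended. The labels do not say whether rats shared a litter or cage. The comparisons ask how the lung response to smoke and LPS differs when hydrogen sulfide is supplied or its synthesis is blocked. No group received NaHS or PPG without smoke and LPS. An effect of either agent by itself therefore cannot be told apart from a changed response to the exposure.

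Interferons are cytokines that put cells into an antiviral state. Type I interferons act through the receptor Ifnar1 and Ifnar2 and lead to a complex that holds Stat2 and Irf9 and binds a DNA element named ISRE. Interferon gamma acts through Ifngr1 and Ifngr2 and leads to binding at a DNA element named GAS. Many genes answer to both. In the airway this programme is best known from viral infection, where it restrains replication in epithelial cells and macrophages and brings T cells and NK cells in through the chemokines Cxcl9, Cxcl10 and Cxcl11.

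The elements named above can be read in the promoters of several of these genes. RefSeq promoter windows on build GRCr8, which run from 250 bases before to 50 bases after the start of a gene, were at hand for 34 of the 43 genes. The core of the ISRE was searched as GAAANNGAAA and the GAS as TTCNNNGAA, each on both strands. The ISRE core was found in 20 of 34 windows (58.8%), against 3.92% of 33469 windows over the whole genome. The GAS was found in 13 of 34 windows (38.2%), against 8.87% of all windows, and 7 of the 34 held both. The share with an ISRE core was 5 of 10 among the genes that were called higher with PPG (the rule is given below) and had a window, and 12 of 19 among the other genes tested. The 5 stretches are shown because they belong to genes on which the results turn. The capitals mark the ISRE core, which reads as its reverse complement in all but Cxcl10, and each stretch stops before the start of the gene.
Irf7 (chr1:205800058-205800117, minus strand): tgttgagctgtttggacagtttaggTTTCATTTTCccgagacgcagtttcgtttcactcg
Ifit3 (chr1:241527257-241527316, plus strand): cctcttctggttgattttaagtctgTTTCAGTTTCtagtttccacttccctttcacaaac
Gbp2 (chr2:234005671-234005726, plus strand): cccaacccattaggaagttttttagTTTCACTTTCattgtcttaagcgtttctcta
Gbp5 (chr2:233910918-233910977, plus strand): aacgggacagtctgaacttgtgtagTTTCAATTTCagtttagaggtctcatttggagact
Cxcl10 (chr14:15988816-15988857, plus strand): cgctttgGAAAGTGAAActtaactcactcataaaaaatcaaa
The first base of the core lay 69 bases before the start of Irf7, 44 before Ifit3, 31 before Gbp2, 56 before Gbp5 and 243 before Cxcl10. No ISRE core was found in these windows of Mx1, Oasl, Cxcl9, Cxcl11 and Ifi204, and no windows were at hand for Isg15, Usp18 and Ifit1. The GAS letters were found in the windows of Cxcl9, Cxcl11 and Ifi204. A match is a string of letters and was not tested for binding.

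Levels are given as log2 signal, the scanner's processed intensity after each array was scaled by its 75th percentile, so that a difference of 1 is a 2-fold change. A level of one gene cannot be set against that of another, since each gene was read by its own probe. The 75th percentile of the signal ran from 1229 to 3261 over the 12 arrays. Control replicate 3 and the 3 CS+LPS arrays shared one slide and all other arrays the other, so any difference between CS+LPS rats and treated rats is also a difference between slides. Of 9 lung markers all were well above background, with a summed signal of 980000 to 1520000 in control rats and 848000 to 1100000 in exposed rats. Control replicate 3, which had the lowest 75th percentile, also had the highest level of the heart muscle gene Myh6 (14.80, against 3.63 and 4.09 in the other control rats). The summed signal of 3 heart muscle markers was 24300 to 39900 in PPG rats, 9980 to 31900 in CS+LPS rats, 10300 to 34000 in NaHS rats and 6150 to 58100 in control rats. The summed signal of 2 fat markers was 7910 to 11100 in PPG rats, 3850 to 6030 in CS+LPS rats, 4490 to 7160 in NaHS rats and 3240 to 9650 in control rats. The part of these tissues in the results below was not tested.

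PPG-treated rats had the highest levels of most interferon-stimulated genes. The mean of the CS+LPS+PPG group was the highest of the 4 group means for 30 of 36 genes, and 28 genes had their single highest value on a PPG array, 23 of them in PPG replicate 2. No gene had its lowest value on a PPG array. The lowest value lay in CS+LPS replicate 1 for 15 genes and in control replicate 3 for 13, which also had the highest value of 6. These arrays had the highest and the lowest 75th percentile of the signal (3261 and 1229). A gene was called when it differed at least 2-fold with an unadjusted p under 0.05 from limma. Against control, 11 genes were called in PPG rats, all higher (11 of 36, while 2.74% of all genes tested were called higher and 4.51% in either direction). These were Cxcl11, Ifi204, Cxcl10, Isg15, Usp18, Gbp5, Ifit3, Mx1, Gbp2, Cxcl9 and Oasl. Apart from Cxcl11, which was not well above background in any control rat, their log2 differences ran from 1.13 for Oasl to 1.98 for Ifi204. An adjusted p of limma under 0.05 was reached by 7 genes, against 6.04% of all genes, namely Gbp2, Gbp5, Cxcl10, Ifi204, Isg15, Irgm and Ifi35. The unpaired t-test named in the methods called 5 genes and left none after adjustment. The median log2 difference over the 36 genes was 0.75, beside 0.01 over all genes tested. In 16 of 36 genes all PPG rats lay above all control rats, which held for 19.7% of all genes. In 2 genes, Oas1b and Trim25, all PPG rats lay below all control rats, against 1701 of 11146 genes tested. For Oas1b this also held for CS+LPS and NaHS rats, with log2 differences of -0.45 and -0.41, beside -0.28 with PPG.

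**Figure D1:**
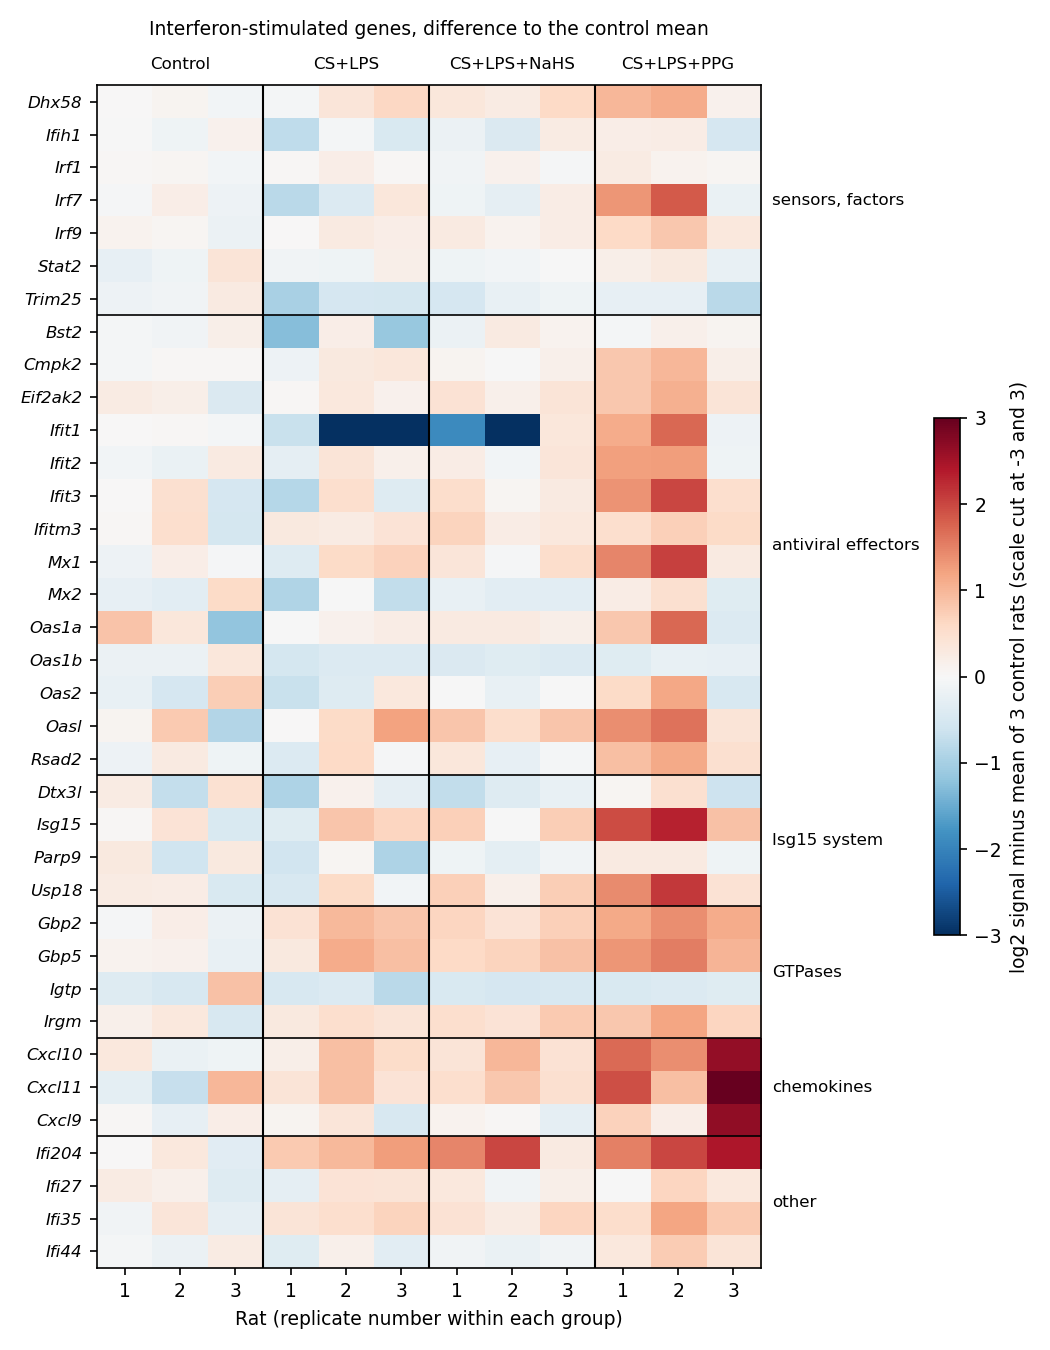
Heat map of 36 interferon-stimulated genes (rows, grouped by role) in 12 rats (columns, 3 in each group). Colour is the log2 signal minus the mean of the 3 control rats, red for higher and blue for lower, with the colour scale ending at -3 and 3. The red cells gather in PPG replicates 1 and 2, whose medians over the genes were 0.80 and 1.09 above the control mean, and for the chemokines in PPG replicate 3.

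Against CS+LPS, 8 genes were called in PPG rats, all higher (1.50% of all genes were called higher and 1.71% in either direction). They were Ifit1, Cxcl11, Ifit3, Cxcl10, Isg15, Usp18, Irf7 and Cxcl9. Apart from Ifit1, which was well above background in 1 of 3 CS+LPS rats, their log2 differences ran from 1.19 for Cxcl9 to 1.54 for Cxcl11. No adjusted p of limma was under 0.05 among the 36 genes, 19 had an unadjusted p under 0.05 (9.75% of all genes), and the unpaired t-test named in the methods called 2 genes and left none after adjustment. All 36 differences were above 0, with a median of 0.59, beside 0.02 over all genes. In 12 of 36 genes the PPG rats lay wholly above the CS+LPS rats, against 10.8% of all genes. These differences cannot be told apart from a difference between slides. With slide as a block, where control replicate 3 alone links the slides, the median was 0.65 and 5 genes were called, but only Cxcl11 was among the 8, while 17.1% of all genes were called in that fit. PPG against NaHS, where all 6 arrays lay on one slide, is free of this and is described after the single genes. The comparisons share arrays, so their values are side by side and are not independent.

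**Figure D2:**
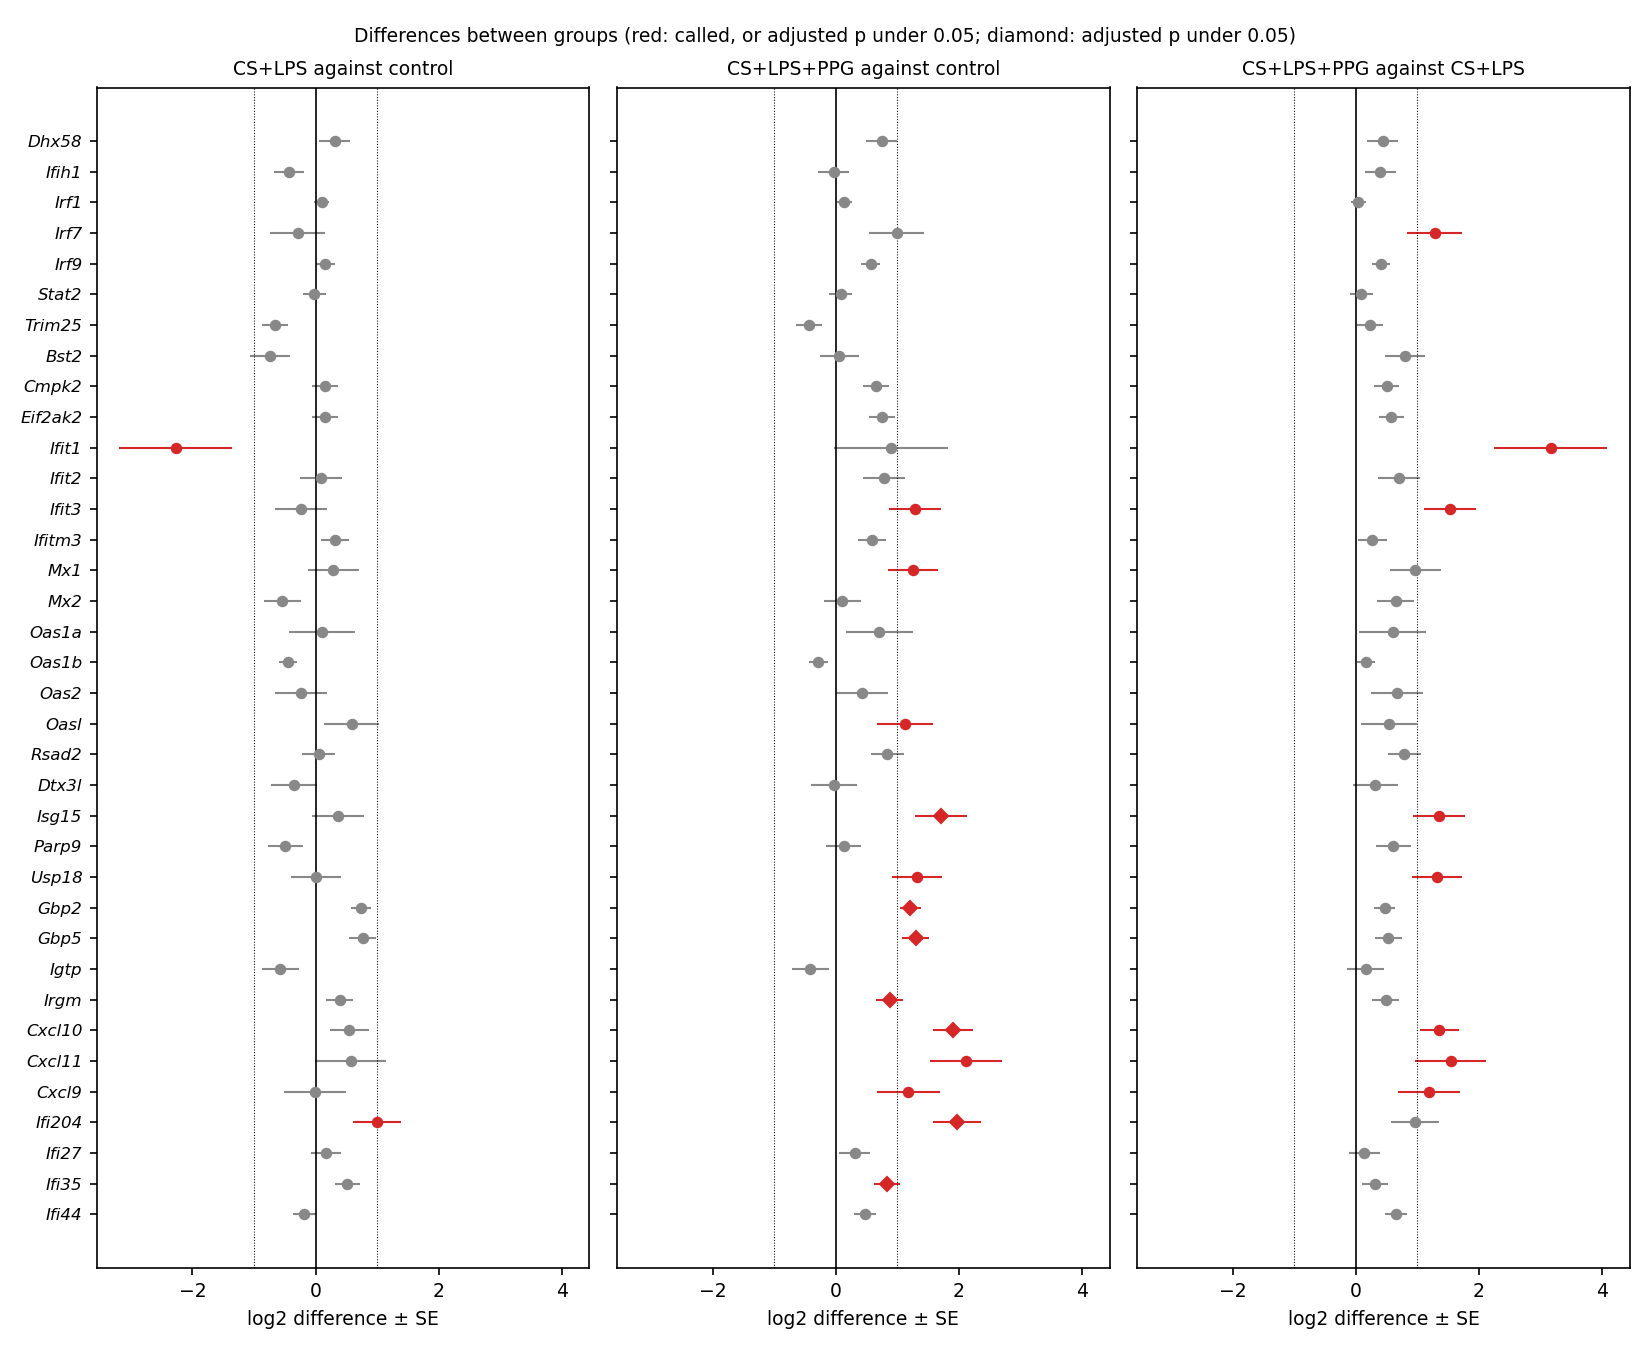
Log2 differences with standard errors (horizontal axis) of 36 genes (rows, in the order of the heat map) in 3 comparisons. Red points were called or had an adjusted p under 0.05, diamonds had an adjusted p under 0.05, and dotted lines mark a 2-fold change. In CS+LPS against control 2 points are red, and in both PPG comparisons every red point lies to the right of 0. The points of Ifit1 and Cxcl11 rest in part on signals that were not well above background.

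Among the sensors and transcription factors, 1 of 7 genes was called with PPG. Irf7, the factor that drives interferon alpha production and is itself induced by interferon, was at 12.89, 13.14 and 12.78 in control rats, 12.13, 12.53 and 13.28 in CS+LPS rats, 12.81, 12.66 and 13.15 in NaHS rats, and 14.27, 14.78 and 12.73 in PPG rats. PPG replicates 1 and 2 lay above all other rats, and PPG replicate 3 was level with the lowest control rats. Irf7 was higher by 1.28 ± 0.45 (SE, 3 rats in each group) with PPG than with CS+LPS (adjusted p = 0.32 from limma). Against control the log2 difference was 0.99, with an adjusted p of 0.174. Dhx58, a helper of the RNA sensors, and Irf9, the DNA-binding part of the type I complex, differed from control by 0.75 and 0.57 with unadjusted p-values of 0.0134 and 0.003, below the 2-fold limit. Irf1, Stat2 and Ifih1, the last a sensor of viral RNA, differed from control by 0.14 or less in either direction with PPG. Trim25, which activates the sensor encoded by Ddx58, had its highest group mean in control rats, and differed by -0.66 in CS+LPS rats (adjusted p = 0.1) and by -0.43 in PPG rats.

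The 14 antiviral effectors that were tested act on viral RNA, protein or budding. Their median log2 difference to control was 0.73 with PPG, 0.07 with CS+LPS and 0.12 with NaHS. With PPG 13 of 14 lay above control and 3 were called against control (Mx1, Ifit3 and Oasl). Mx1, a GTPase that traps viral nucleocapsids, was at 12.16, 12.52 and 12.29 in control rats, 11.94, 12.89 and 13.01 in CS+LPS rats, 12.69, 12.28 and 12.84 in NaHS rats, and 13.78, 14.37 and 12.60 in PPG rats. The PPG rats did not overlap with control rats but replicate 3 exceeded the highest control rat by a small step. Mx1 rose by 1.26 ± 0.41 against control (adjusted p = 0.0824).

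Ifit3, which binds Ifit1 on foreign RNA, was at 9.75, 10.21 and 9.23 in control rats, 8.88, 10.24 and 9.35 in CS+LPS rats, 10.26, 9.80 and 9.99 in NaHS rats, and 11.08, 11.74 and 10.24 in PPG rats. It rose with PPG by 1.29 ± 0.42 against control (adjusted p = 0.0822) and by 1.53 ± 0.42 against CS+LPS (adjusted p = 0.173). The lowest PPG rat was level with the highest CS+LPS rat at the precision printed. Oasl, a relative of the oligoadenylate synthetases, was at 5.69, 6.39 and 4.71 in control rats, 5.60, 6.16 and 6.80 in CS+LPS rats, 6.44, 6.12 and 6.44 in NaHS rats, and 6.98, 7.23 and 5.98 in PPG rats. Its groups overlapped, its adjusted p against control was 0.127, and it was well above background on 11 of 12 arrays.

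Ifit1, which holds back translation of RNA that lacks the host cap, had signals near background in several rats. Its level was 5.72, 5.74 and 5.64 in control rats, 5.03, 2.54 and 2.72 in CS+LPS rats, 3.78, 2.13 and 6.05 in NaHS rats, and 6.81, 7.43 and 5.55 in PPG rats. It was well above background in all control and PPG rats but in 1 of 3 CS+LPS rats and 1 of 3 NaHS rats, so the low values are near the limit of the measurement. Ifit1 fell by 2.27 ± 0.92 in CS+LPS rats against control (adjusted p = 0.162), a call that was lost with slide as a block or on slide 2 only (-2.21 in both), and was higher by 3.17 ± 0.92 with PPG than with CS+LPS (adjusted p = 0.211). PPG against control gave 0.90 with an adjusted p of 0.534.

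Of the effectors that were not called, Rsad2, Ifit2, Eif2ak2, Cmpk2 and Ifitm3 had unadjusted p-values from 0.00503 to 0.0417 with PPG against control and log2 differences from 0.59 to 0.84. Eif2ak2, the kinase that halts translation on double-stranded RNA, had a second probe that gave 0.72, beside 0.75 for the main probe. Bst2 (tetherin), which holds budding virus at the cell surface, behaved otherwise. It was at 15.83, 15.78 and 16.06 in control rats, 14.61, 16.09 and 14.75 in CS+LPS rats, 15.71, 16.16 and 15.99 in NaHS rats, and 15.83, 16.04 and 15.97 in PPG rats. CS+LPS replicates 1 and 3 were low and all other rats lay close together. Its log2 difference was -0.74 in CS+LPS rats against control (adjusted p = 0.181), and 0.80 in both NaHS and PPG rats against CS+LPS (adjusted p = 0.394 and 0.392).

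Isg15 and Usp18 belong to one system, in which the ubiquitin-like protein Isg15 is attached to other proteins and Usp18 removes it and also dampens the type I receptor. Isg15 was at 12.10, 12.47 and 11.60 in control rats, 11.70, 12.89 and 12.69 in CS+LPS rats, 12.77, 12.05 and 12.79 in NaHS rats, and 14.01, 14.37 and 12.93 in PPG rats. All PPG rats lay above all other rats. Isg15 rose with PPG by 1.71 ± 0.42 against control (3.28-fold, adjusted p = 0.0455) and by 1.35 ± 0.42 against CS+LPS (adjusted p = 0.24).

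Usp18 was at 9.67, 9.64 and 8.97 in control rats, 8.95, 10.01 and 9.34 in CS+LPS rats, 10.14, 9.57 and 10.17 in NaHS rats, and 10.85, 11.55 and 9.85 in PPG rats. It was higher with PPG by 1.32 ± 0.41 against control (adjusted p = 0.0754) and by the same amount against CS+LPS (adjusted p = 0.242), and its dimmer probe gave 1.56 and 1.13. PPG replicate 3 overlapped with CS+LPS rats and NaHS rats. Parp9 and Dtx3l, which act together in the DNA damage and interferon response, were not called in any comparison, with log2 differences of 0.13 and -0.03 for PPG against control.

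The interferon-inducible GTPases attack the membranes around intracellular microbes and 3 of the 4 tested had higher means in every exposed group than in control. Gbp2 was at 13.08, 13.32 and 12.95 in control rats, 13.56, 14.08 and 13.95 in CS+LPS rats, 13.76, 13.53 and 13.82 in NaHS rats, and 14.25, 14.52 and 14.22 in PPG rats. No control rat reached any exposed rat, and no CS+LPS or NaHS rat reached a PPG rat. The log2 difference of Gbp2 to control was 0.74 ± 0.17 with CS+LPS (adjusted p = 0.0506), 0.58 ± 0.17 with NaHS (adjusted p = 0.157) and 1.21 ± 0.17 with PPG (adjusted p = 0.0175). Between PPG and CS+LPS it was 0.47 (adjusted p = 0.335).

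Gbp5 was also lowest in control and highest with PPG. It was at 10.55, 10.58 and 10.23 in control rats, 10.74, 11.57 and 11.35 in CS+LPS rats, 11.06, 11.13 and 11.33 in NaHS rats, and 11.77, 11.99 and 11.48 in PPG rats. On this main probe all exposed rats lay above all control rats, and CS+LPS replicate 2 reached into the PPG rats. It rose by 1.30 ± 0.22 with PPG against control (adjusted p = 0.0198), and its second, dimmer probe gave 1.25. With CS+LPS and NaHS the differences to control were 0.77 (adjusted p = 0.0829) and 0.72 (adjusted p = 0.171). The dimmer probe gave 0.39 and 0.77 for these, and on it the CS+LPS rats overlapped with the control rats. Irgm was at 8.97, 9.12 and 8.34 in control rats, 9.11, 9.31 and 9.19 in CS+LPS rats, 9.31, 9.21 and 9.60 in NaHS rats, and 9.63, 10.00 and 9.45 in PPG rats, and rose by 0.88 ± 0.22 with PPG against control (adjusted p = 0.0452).

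The 2 probes of Igtp did not give one answer. The more intense probe, which stands for the gene in the counts, was at 17.41 in control replicate 3 and between 15.73 and 16.17 in the other 11 rats, with a log2 difference of -0.41 for PPG against control (adjusted p = 0.372). The dimmer probe was at 9.98, 9.90 and 8.80 in control rats, 10.27, 10.63 and 10.40 in CS+LPS rats, 10.49, 10.35 and 10.60 in NaHS rats, and 11.13, 11.29 and 10.91 in PPG rats. This probe followed the pattern of Gbp2 and Gbp5, with a log2 difference of 1.55 ± 0.27 (adjusted p = 0.0215). Which probe reads Igtp was not tested.

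**Figure D3:**
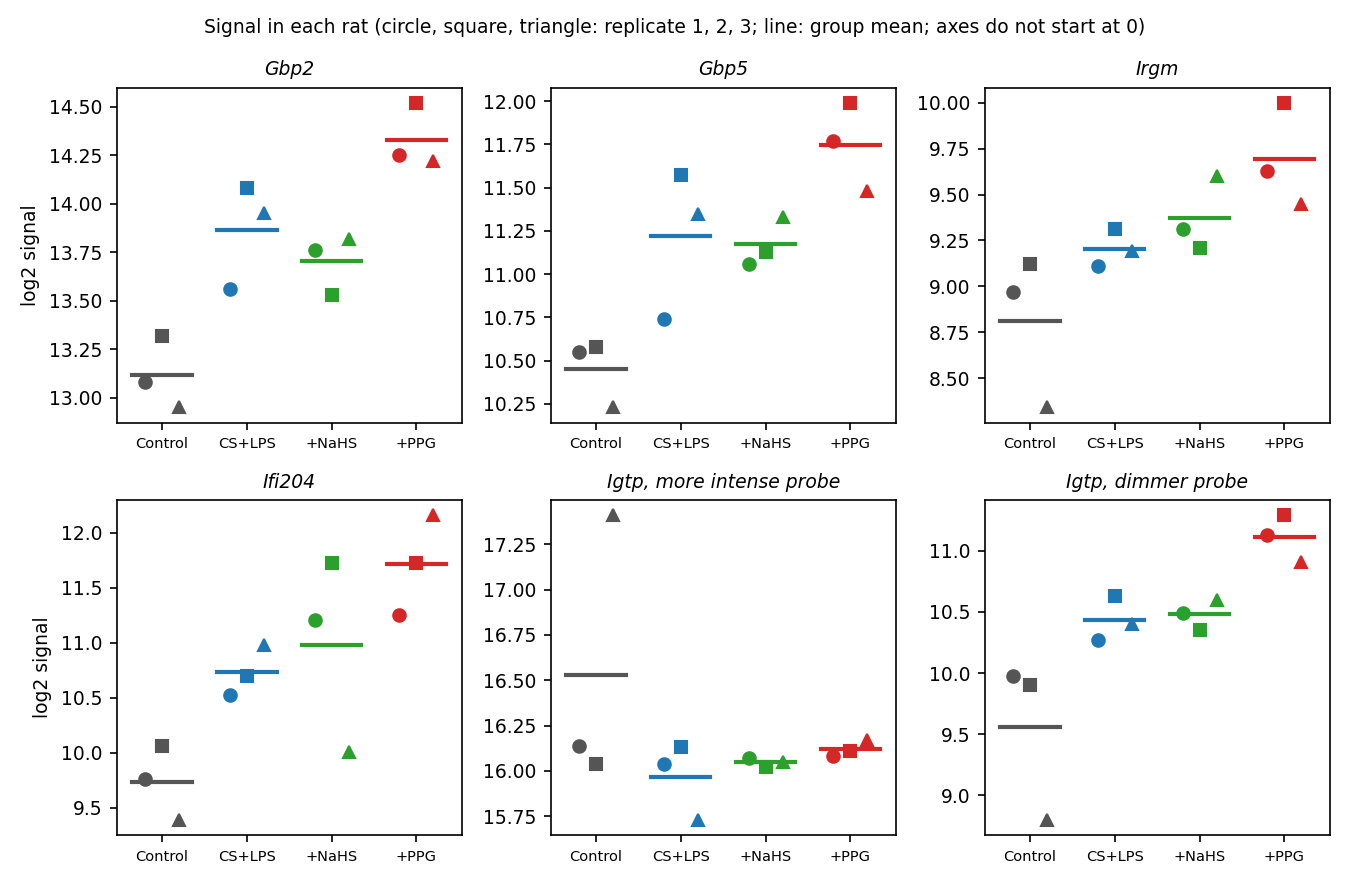
Log2 signal (vertical axes, not starting at 0) of Gbp2, Gbp5, Irgm, Ifi204 and both probes of Igtp in each rat by group, with lines at the group means. Gbp2 stands between 12.95 and 13.32 in control rats and between 14.22 and 14.52 in PPG rats, with the CS+LPS and NaHS rats between, and the 2 probes of Igtp differ.

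Cxcl9, Cxcl10 and Cxcl11 encode ligands of the receptor Cxcr3 on T cells and NK cells, and all 3 were called with PPG against control, against CS+LPS and against NaHS. Cxcl9 was at 7.13, 6.85 and 7.30 in control rats, 7.18, 7.45 and 6.62 in CS+LPS rats, 7.20, 7.14 and 6.82 in NaHS rats, and 7.78, 7.29 and 9.75 in PPG rats. The one high value was that of PPG replicate 3. Cxcl9 differed by 1.18 ± 0.51 from control (adjusted p = 0.15), and the PPG and control rats overlapped. This call was kept in 8 of 17 alternative runs. It was lost without PPG replicate 3, when any control rat was left out, and by the t-test of the methods.

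Cxcl10 was at 7.75, 7.24 and 7.31 in control rats, 7.62, 8.34 and 7.98 in CS+LPS rats, 7.81, 8.44 and 7.87 in NaHS rats, and 9.14, 8.82 and 10.06 in PPG rats. Here each PPG rat lay above every other rat. Cxcl10 rose with PPG by 1.91 ± 0.32 against control (3.75-fold, adjusted p = 0.0197) and by 1.36 ± 0.32 against CS+LPS (2.56-fold, adjusted p = 0.109). Cxcl11 was at 3.61, 3.20 and 4.89 in control rats, 4.29, 4.80 and 4.32 in CS+LPS rats, 4.41, 4.72 and 4.37 in NaHS rats, and 5.83, 4.80 and 7.41 in PPG rats. It was well above background in 2 of 3 PPG rats and in no control rat (adjusted p = 0.0579 from limma). With control signals raised to at least the lowest signal well above background on their array, it was 4-fold higher with PPG. This is not a firm lower bound, since not every PPG rat had a signal well above background. PPG replicate 2 lay below control replicate 3. Under normexp background correction the log2 difference was 0.45 and Cxcl11 was not called. Against CS+LPS, where all 3 rats had a signal well above background, Cxcl11 was higher by 1.54 ± 0.58 (adjusted p = 0.354).

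**Figure D4:**
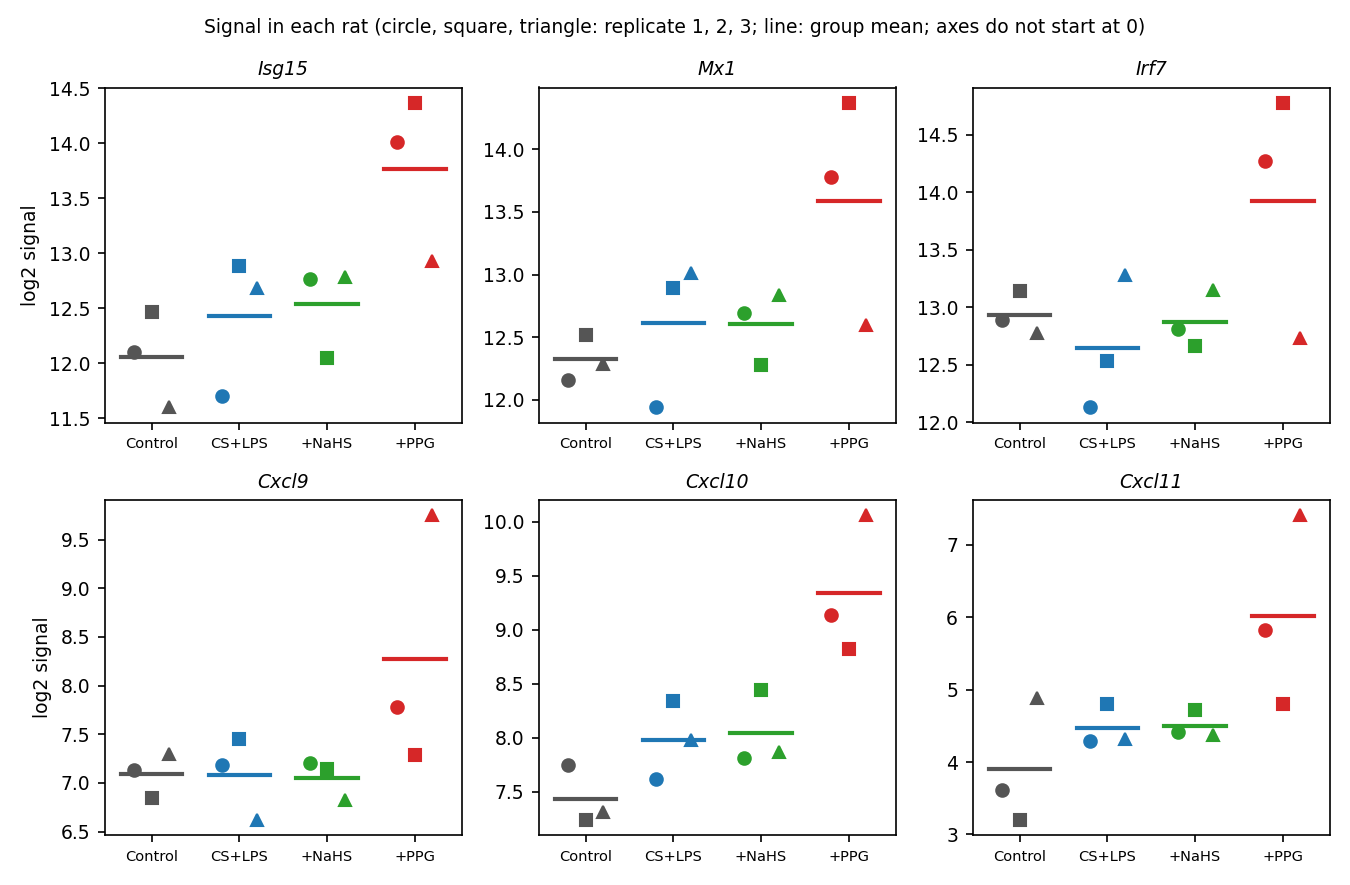
Log2 signal (vertical axes, not starting at 0) of Isg15, Mx1, Irf7, Cxcl9, Cxcl10 and Cxcl11 in each rat by group, with lines at the group means and 1 symbol for each replicate number. PPG replicate 2 is highest for Isg15, Mx1 and Irf7 (14.37, 14.37 and 14.78), and PPG replicate 3 is highest for Cxcl9, Cxcl10 and Cxcl11 (9.75, 10.06 and 7.41).

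Among the remaining genes, Ifi204 encodes a DNA sensor of the HIN-200 family and is named Mnda in the RefSeq table. It was at 9.76, 10.06 and 9.39 in control rats, 10.53, 10.70 and 10.98 in CS+LPS rats, 11.21, 11.73 and 10.01 in NaHS rats, and 11.25, 11.73 and 12.16 in PPG rats. It was the one gene called higher against control in all 3 exposed groups, by 1.00 ± 0.39 with CS+LPS (adjusted p = 0.15), 1.25 ± 0.39 with NaHS (adjusted p = 0.181) and 1.98 ± 0.39 with PPG (adjusted p = 0.0292). NaHS replicate 3 lay among the control rats. Ifi35 was at 10.73, 11.20 and 10.57 in control rats, 11.23, 11.33 and 11.51 in CS+LPS rats, 11.26, 11.07 and 11.47 in NaHS rats, and 11.37, 12.01 and 11.62 in PPG rats. It rose by 0.83 ± 0.21 with PPG (adjusted p = 0.0468). Ifi44 and Ifi27 gave 0.48 (adjusted p = 0.113) and 0.31 for PPG against control.

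The 3 PPG rats did not share one profile. Over all 36 genes, the median difference to the control mean was 0.80 in PPG replicate 1, 1.09 in replicate 2 and 0.30 in replicate 3, while the other exposed rats lay between -0.27 and 0.31. Of the 3 rats, replicate 3 had the lowest level of 25 genes and replicate 2 the highest of 28. Among antiviral effectors the medians were 0.80, 1.15 and 0.13, and among sensors and factors 0.24, 0.29 and -0.21. For the 3 chemokines the order turned, with 1.70 in replicate 1, 0.90 in replicate 2 and 2.66 in replicate 3, and replicate 3 had the highest value of each chemokine. The GTPases lay closer together, with 0.98, 1.30 and 0.84. No test was made between rats, as each gave 1 array. Without PPG replicate 2, 7 of the 11 genes remained called against control, and Mx1, Oasl, Ifit3 and Usp18 did not. Without PPG replicate 3, 16 genes were called against control, 10 of them shared with the 11, and none of the chemokines was called against CS+LPS or NaHS.

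**Figure D5:**
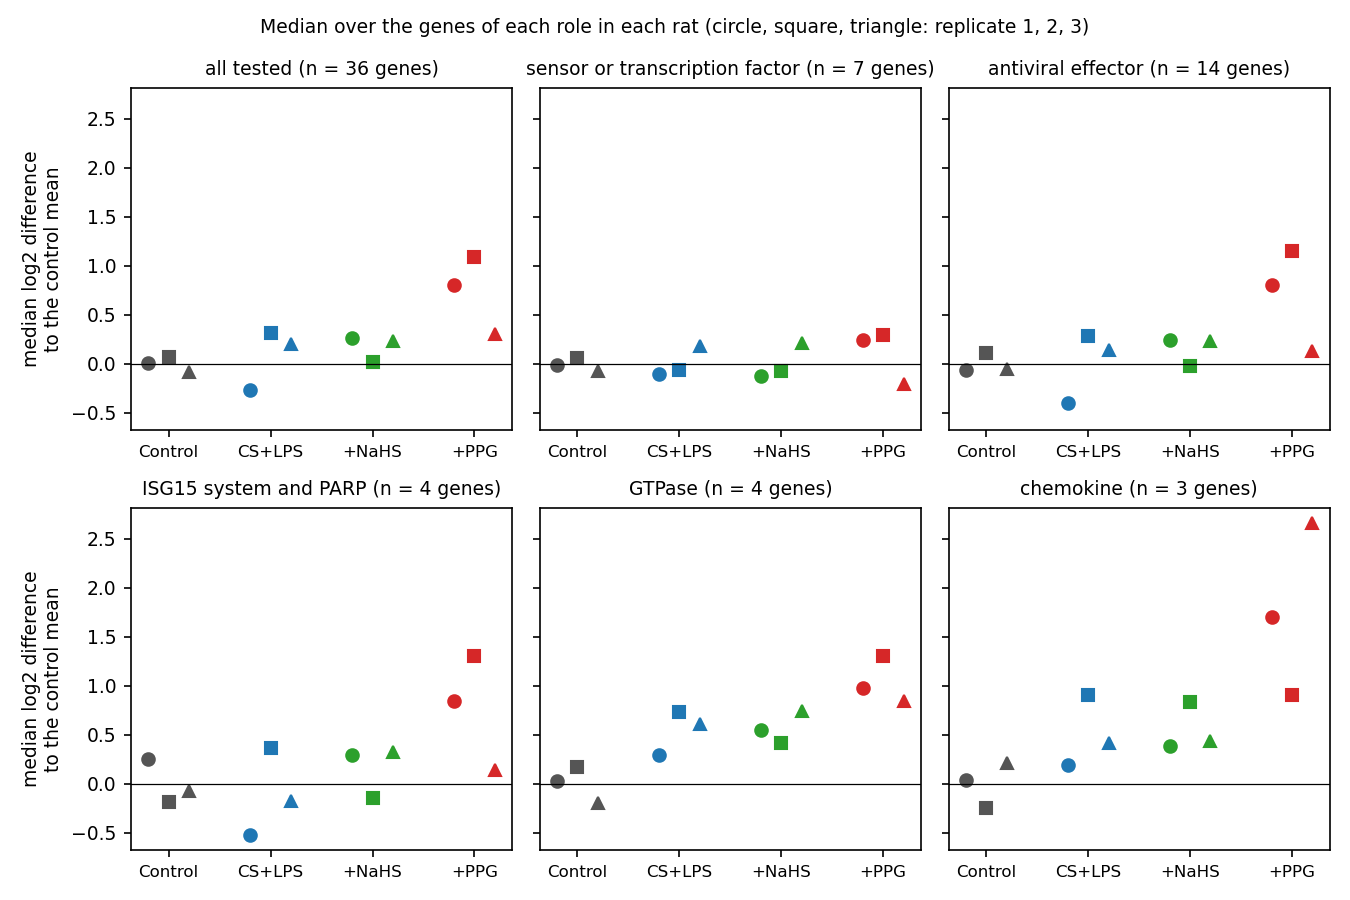
Median over the genes of a role (vertical axis, log2 difference to the mean of the control rats) in each rat, for all 36 genes and for 5 roles, with 1 symbol for each replicate number. PPG replicate 3 (triangle) sits at 0.13 for antiviral effectors and at 2.66 for chemokines, and the GTPase panel has all exposed rats at 0.29 or higher.

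After smoke and LPS alone, calls among these genes were near the share over all genes. In CS+LPS against control, 2 of 36 genes were called, Ifi204 higher and Ifit1 lower (4.03% of all genes were called), 8 had an unadjusted p under 0.05, 4 in each direction (24.4% of all genes), and none had an adjusted p under 0.05. The t-test of the methods also called 2 and none after adjustment. With slide as a block and on slide 2 only, Ifi204 was still called and Ifit1 was not, and 19.7% of all genes were called in either fit. The median was 0.09, beside -0.02 over all genes. Without CS+LPS replicate 3 or without control replicate 1 or 3, no gene was called. By role, the GTPases and chemokines had medians of 0.57 and 0.55, and the sensors and factors -0.02.

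With NaHS the calls were also near the share over all genes, which does not show that the groups are alike. Against control, 1 gene was called, Ifi204 (2.63% of all genes were called), 5 had an unadjusted p under 0.05 (18.5% of all genes) and none an adjusted p under 0.05, and the t-test called none. Without NaHS replicate 2 no gene was called. Against CS+LPS, limma called no gene (1.42% of all genes were called), 1 had an unadjusted p under 0.05 (8.18% of all genes) and none an adjusted p under 0.05, and the t-test gave none at an unadjusted p under 0.05. The median was 0.08 and the range -0.16 to 0.80. With slide as a block the median was -0.05.

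NaHS and PPG can be compared on one slide. In NaHS rats 7 genes were called, all lower than in PPG rats (0.359% of all genes were called lower and 0.547% in either direction), namely Ifit1, Cxcl11, Cxcl10, Isg15, Cxcl9, Irf7 and Ifit3. Ifit1 and Cxcl11 were each well above background in 1 of 3 NaHS rats, so their differences rest in part on background signal. Of 36 genes 34 were lower in NaHS rats, with a median of -0.45, beside 0.01 over all genes, and 14 had an unadjusted p under 0.05 (8.30% of all genes). None had an adjusted p under 0.05 (0.555 for the lowest). The t-test called 1 gene and none after adjustment. In 12 of 36 genes the NaHS rats lay wholly below the PPG rats, against 1429 of 11146 genes tested. Among the 7 called genes this held for Cxcl10, Isg15, Cxcl9 and Cxcl11. Cxcl10 and Isg15 differed by -1.30 ± 0.32 and -1.23 ± 0.42 (adjusted p = 0.555 for both). Without PPG replicate 2 or without NaHS replicate 2, 3 genes were called, and without NaHS replicate 1, 4.

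The genes above the interferon-stimulated genes in the pathway were taken from a list of 35, of which 27 had a probe and 22 were tested. Of the 22, 2 were called with PPG against control (4.51% of all genes were called), Tlr7 and Sting1, both higher. An adjusted p under 0.05 was reached by 4, against 6.04% of all genes. The median difference of the 22 genes was 0.25, beside 0.75 for the interferon-stimulated genes. Tlr7, a sensor of single-stranded RNA in endosomes, was at 6.81, 6.70 and 5.58 in control rats and 7.90, 7.93 and 7.74 in PPG rats, a difference of 1.49 (adjusted p = 0.0226), with 7.24 to 7.39 in CS+LPS rats and 7.20 to 7.52 in NaHS rats. Sting1, the adaptor of DNA sensing, differed by 1.27 (adjusted p = 0.158), with control replicate 2 at 9.26 against 11.90 and 11.94 in the other control rats. Its level was 12.20 to 12.40 in PPG rats, 12.19 to 12.44 in CS+LPS rats and 12.06 to 12.38 in NaHS rats. Irf5, a factor downstream of the Toll-like receptors, was higher than in control by 0.78 with CS+LPS (adjusted p = 0.0461), 0.71 with NaHS (adjusted p = 0.129) and 0.94 with PPG (adjusted p = 0.0227). Mavs, the adaptor of RNA sensing on mitochondria, was lower with PPG than in control by 0.70 (adjusted p = 0.0455). Control rats were at 11.65, 11.66 and 12.24, the last in control replicate 3, and PPG rats at 11.19, 11.13 and 11.14. The CS+LPS rats were at 11.31 to 11.62 and the NaHS rats at 11.19 to 11.51.

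Interferons themselves could hardly be read. Of 8 ligand genes, 4 had a probe and Ifna4 alone was tested. It was at 7.58, 7.60 and 7.71 in PPG rats and 7.57, 7.93 and 7.44 in NaHS rats. Levels were 7.22, 7.13 and 6.83 in CS+LPS rats and 7.18, 7.26 and 7.55 in control rats. The 3 other ligands with a probe (Ifnb1, Ifng and Ifnk) did not reach the limit for testing. None of the 4 receptor genes tested and none of the 4 inhibitors, Socs1 and Socs3 among them, was called in any comparison. Against CS+LPS none of the 22 pathway genes was called with PPG, and 2 had an unadjusted p under 0.05.

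Lung tissue holds several cell types, and fewer cells of a type cannot be told apart from less RNA in each cell. Of 4 macrophage markers 2 were called higher with PPG against control (Cd68 and Adgre1) and none against CS+LPS, with a summed signal of 14400 to 18300 in PPG rats, 15200 to 21600 in CS+LPS rats, 15900 to 19700 in NaHS rats and 4820 to 10200 in control rats. Of 8 T cell and NK cell markers, 2 were called against control (Cd3d and Ncr1) and 1 against CS+LPS (Ncr1), and the sums were 15600 to 18800 with PPG, 11200 to 18000 with CS+LPS, 15600 to 22200 with NaHS and 5430 to 15900 in control. Of 4 neutrophil markers, 2 were called with PPG against control (S100a8 and S100a9), with sums of 21400 to 33200 in PPG rats, 12900 to 27400 in CS+LPS rats, 12900 to 29000 in NaHS rats and 7560 to 17600 in control rats. In PPG against NaHS none of these 16 markers was called, and the sums of macrophage and of T cell and NK cell markers overlapped between those groups. Plasmacytoid dendritic cells are a main source of interferon alpha. Of their 4 markers listed, Siglech had no probe. None of the 3 tested, among them Bst2, itself an interferon-stimulated gene of the list, was called in any comparison. An unadjusted p under 0.05 from limma was reached by 2 of the 3 in CS+LPS and in PPG against control. The same number reached it in NaHS and in PPG against CS+LPS. Of 2 fat markers 1 was called with PPG against control (Cfd, by 1.12) and 1 against CS+LPS and against NaHS (Adipoq). Adipoq had levels of 10.65, 7.90 and 10.02 in PPG rats and 3.14, 5.65 and 3.53 in NaHS rats, with 7.12, 4.26 and 3.10 in CS+LPS rats and 3.82, 4.38 and 11.63 in control rats. Adipoq was well above background on 6 of 12 arrays. The part of these cells and tissues in the levels of the interferon-stimulated genes was not tested.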

How the data were processed

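Lung RNA was labelled with Cy3 and hybridized to single-colour Agilent arrays, 1 rat each. The authors deposited the Feature Extraction output (version 10.7.3.1 per the file headers), in which the processed signal of a spot is its linear intensity less the background estimate. Lists of differentially expressed probes, with fold changes and p-values, were also deposited and not used here.

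Intensities were taken to log2 and scaled by the 75th percentile of the spots of each array, the mean percentile being added back. Outlier spots were left out and spots of a probe averaged. Probes well above background in at least 50% of their spots in all 3 rats of any group were kept (21239 of 30367). RefSeq accessions gave symbols through a GRCr8 gene table, and the most intense probe kept stood for a gene. With limma 3.58.1 in R 4.3.3, 1 model was fitted to all 12 arrays, and p-values were adjusted (Benjamini-Hochberg) over all probes kept. The smallest two-sided p of an exact permutation test with 3 rats a group is 0.1. The number of arrays limits the precision.

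Genes given rat by rat were those called or with an adjusted p under 0.05 in any comparison, and the 3 largest differences in each. The members and lists were chosen with earlier results of these data known. Same-numbered rats were not paired (correlations of their deviations from -0.303 to 0.135). The values of 1 pathway gene are not reported here.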

Additional observations from a re-analysis of the deposited data

How the results depend on the processing

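Medians over the genes kept within 0.26 (the SD between rats of a group) of the reported value in every alternative run, and those of both PPG comparisons and of NaHS against PPG kept their sign. Under normexp background correction (offset 50, on the median signal, since the mean was not at hand) the median of all genes shifted to -0.11 in CS+LPS against control, and that of the 36 genes to 0.00.

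In CS+LPS against control, 2 genes were called, 1 under quantile normalization, with the percentile taken from detected probes alone and with the filter on all 12 arrays, 0 under normexp, 4 with slide as a block and 5 on slide 2 only, where 19.7% of all genes were called in either fit. In NaHS against control, 1 was called, and 0 by the t-test and on slide 1 only. In PPG against control the 11 fell to 5 by the t-test. In NaHS against CS+LPS the 0 became 2 with slide as a block, where 16.9% of all genes were called. In PPG against CS+LPS the 8 became 5 with slide as a block and 2 by the t-test. In NaHS against PPG the 7 fell to 1 by the t-test. The cause was not tested. Leaving out 1 array at a time gave 0 to 3 calls in CS+LPS against control, 0 to 2 in NaHS against control, 7 to 16 in PPG against control, 0 to 1 in NaHS against CS+LPS, 4 (without CS+LPS replicate 1) to 11 in PPG against CS+LPS and 3 to 8 in NaHS against PPG. The fits on 1 slide were chosen after seeing the data.

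With the replicate block, which assumes a pairing that the labels do not give, 10, 7 and 6 genes were called in PPG against control, PPG against CS+LPS and NaHS against PPG, and other counts were as reported. Of 12 arrays, 1 correlated best with its own number. Single genes were followed through the runs only in comparisons where they were called, had an adjusted p under 0.05 or were among the 3 largest differences. Of these, 3 changed sign, each in a comparison where it was not called: Oasl in NaHS against control (-0.01 under normexp), Usp18 in NaHS against CS+LPS (-0.16 with slide as a block) and Ifit1 in NaHS against CS+LPS (-0.48 without NaHS replicate 3, up to 1.48 without NaHS replicate 2). Sign changes of the other genes were not followed.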
